A study of Mus musculus with 18 samples.

Results

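Genes of the mitochondrial ribosome were followed on 18 cDNA arrays of mouse heart. They were taken as every gene whose platform symbol starts with Mrpl or Mrps and that had a value on at least 9 of the 18 arrays, which gave 62 of 63 such symbols. Mrps15, with a value on 4 arrays, was left out. Of the 62 members, 61 had a value in each of the 9 groups of arrays and were tested among 10272 units (genes, or single spots without a gene name). Mrpl44, measured on 12 arrays, was not tested. The tested members comprised 41 proteins of the large subunit, 18 of the small subunit, Mrps36, which is a subunit of the 2-oxoglutarate dehydrogenase complex, and the pseudogene Mrpl23-ps1, a near-copy of Mrpl23 whose cDNA may share signal with it. Mrps18a and Mrps30 carry small-subunit names but sit in the large subunit and were counted there.

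The mitochondrial ribosome, built from proteins encoded in the nucleus and RNAs encoded in mitochondrial DNA, makes the membrane-embedded core subunits of the respiratory chain and of ATP synthase. Many of its proteins descend from those of the bacterial ancestor of mitochondria, and others were added later in evolution. Heart muscle is rich in mitochondria, and human mutations in several of these genes, among them MRPL3, MRPL44 and MRPS22, cause cardiomyopathy.

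Per the labels, each array compared heart RNA of male origin in Cy5 with heart RNA of female origin, of the same condition and duration, in Cy3. The conditions were control, chronic constant hypoxia (CCH) and chronic intermittent hypoxia (CIH), lasting 1, 2 or 4 weeks. Every combination of condition and duration (9 groups) had 2 arrays, which makes 6 per condition. Of the tested members, Mrps14 and Mrpl52 lacked a value on control 4 weeks replicate 1. The labels give no strain, age, genotype or oxygen level, and nothing in them ties the paired arrays of a group to different animals. The p-values and the standard errors (SE, given after ±) reflect only the spread between the 2 arrays of a group, which may therefore be technical. Spread between durations or conditions does not enter them, so an SE can be much smaller than the scatter of the arrays averaged. All values are log2 ratios centred on each array's median, so a negative value is a lower signal in the male than in the female channel relative to the array's middle gene. No array had the dyes exchanged, so sex and dye cannot be told apart in a mean ratio. A difference in ratio between conditions says that the hypoxia difference was unequal in the male and female channels, and not how either one moved. In whole tissue, fewer cells of a type and less RNA per cell cannot be told apart.

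Between 12650 and 24512 spots had a value on an array. The direction male over female was set by the Y-linked gene Eif2s3y, whose averaged value was above 0 on 17 of 18 arrays, with a highest value of 2.28. It was -0.03 on the array labelled CIH 4 weeks replicate 1 and at least 0.997 on the others, so that array shows no male excess and its direction rests on the label alone. Where it changes the call of a member named in a result, values are given with and without it. Calls also lost without it, and not detailed below, were Mrpl24 over all arrays and Mrpl10, Mrpl16, Mrpl28 and Mrps18a in CIH. Arrays correlated with each other over the deposited values of single spots from -0.53 to 0.74. The first CIH 1 week array carries that condition in its title and CCH 2 weeks in its source names, and was grouped by its title. Of the markers listed for cardiomyocytes, 1 of 11 (Myl7) was measured. It ranged from -2.4 to 1.95 on control arrays, from -1.19 to 3.31 on CCH arrays and from -2.18 to 1.29 on CIH arrays. Its part in the members' ratios was not tested. Ratios give no level, so the labelled tissue could not be checked from these values. Leukocyte markers (7 of 10 measured) had a median of -0.53 to 0.08 on the control arrays, -0.98 to -0.15 on the CCH arrays and -0.72 to -0.14 on the CIH arrays. Skeletal muscle markers (4 of 9 measured) ranged from -1.14 to 0.17, from -0.61 to -0.05 and from -0.35 to 0.52, and fibroblast markers (5 of 6 measured) from -0.39 to 0.46, from -0.31 to 0.52 and from -0.26 to 0.25, in the same order.

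Promoters were matched by symbol to RefSeq (GRCm38.p6) for 53 of the 62 members. They are shown for 3 of the members that the results turn on. Mrps18a had a negative ratio on every array. Mrpl40 and Mrpl47 led the members by p in CCH minus control and in CIH minus control, with opposite signs. Mrps28, which led in CCH minus CIH, and Mrps35 had no matched promoter and could not be shown. Each line holds 250 bases before the start and the first 30 bases after it, on the gene's strand. Capitals mark 3 short motifs, searched on both strands: TGCGCA, the core bound by NRF1; CCGGAA, the core of ETS sites such as that of GABP; and AAGATGG, the core of YY1 sites. NRF1, GABP and YY1 are known regulators of nuclear genes for mitochondrial proteins.
Mrps18a, chr17:46110754-46111033, plus strand: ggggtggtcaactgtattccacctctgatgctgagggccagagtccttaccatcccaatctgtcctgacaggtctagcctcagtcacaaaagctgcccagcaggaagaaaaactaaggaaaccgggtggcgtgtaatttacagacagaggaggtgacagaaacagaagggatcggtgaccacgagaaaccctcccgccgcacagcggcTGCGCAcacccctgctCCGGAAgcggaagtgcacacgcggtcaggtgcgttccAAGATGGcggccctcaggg
Mrpl40, chr16:18876608-18876887, minus strand: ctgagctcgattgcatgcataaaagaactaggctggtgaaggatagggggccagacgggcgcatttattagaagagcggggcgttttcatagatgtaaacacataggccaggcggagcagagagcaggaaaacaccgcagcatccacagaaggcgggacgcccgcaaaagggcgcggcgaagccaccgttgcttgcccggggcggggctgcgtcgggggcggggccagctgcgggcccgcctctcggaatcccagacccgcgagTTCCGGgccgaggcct
Mrpl47, chr3:32736726-32737005, minus strand: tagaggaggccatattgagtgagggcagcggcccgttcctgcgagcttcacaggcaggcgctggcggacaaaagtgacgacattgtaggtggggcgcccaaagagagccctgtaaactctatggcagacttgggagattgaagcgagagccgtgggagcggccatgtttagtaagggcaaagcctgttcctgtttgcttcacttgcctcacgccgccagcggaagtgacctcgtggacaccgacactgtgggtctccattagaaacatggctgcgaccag

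The Mrps18a stretch holds all 3 motifs, Mrpl40 holds the ETS core on the reverse strand just after its start, and Mrpl47 holds none of these letters. In the 300-base windows (250 before to 50 after the start), 33.9% of the 59 member promoters held TGCGCA, against 7.8% of all 32851 promoters. CCGGAA was found in 55.9% of member promoters and 14.9% of all, and AAGATGG in 16.9% and 6.3%. Among promoters of protein-coding genes the shares were 9.7%, 18.7% and 6.2%. Of the 53 members, 2 (Mrps18a and Mrpl32) held all 3 motifs and 10 held none. These are letter matches and not measured sites.

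Averaged over all 18 arrays, mitochondrial ribosomal proteins were mostly lower in the male channel. With limma and Benjamini-Hochberg adjustment over all units (called at an adjusted p under 0.05), 25 of 61 members were lower and 3 were higher. This is 41.0% of the members below 0, against 18.7% of all units below and 8.99% above. The members' median was -0.13, against -0.04 for all units, and 49 of 61 (80.3%) had a negative mean, against 59.3% of all units. Markers of some other cells lay below 0 as well: 6 of 7 leukocyte markers were called lower (median -0.35), and 1 of 4 skeletal muscle markers was (median -0.25, all 4 negative). Of 5 fibroblast markers, 1 was called higher and 1 lower (median 0.005). Of 2 red-cell markers 0 were called (median -0.36), nor were the 1 lung marker (-0.09) and the 1 cardiomyocyte marker (0.006) measured. Their part in the result was not tested. Without the array labelled CIH 4 weeks replicate 1, limma again called 28 members, with a median of -0.15. Cytosolic ribosomal proteins, which form the ribosomes of the cytoplasm, were 28 lower and 1 higher of 57, with a median of -0.18. A list of genes of mitochondrial gene expression, mostly translation factors, RNA processing and modification, transcription, mitochondrial DNA upkeep and tRNA charging, was 9 lower and 7 higher of 46, with a median of -0.03. It also holds Oxa1l, which inserts new proteins into the inner membrane, Letm1, and Dap3, itself a small-subunit protein under another symbol. Dap3 was not called (-0.11 ± 0.06, adjusted p = 0.168), and without it the list was 9 lower and 7 higher of 45. Tufm, the mitochondrial elongation factor that brings tRNAs to the ribosome, was lower (-0.25 ± 0.06, adjusted p = 0.00655), and Tfam, which packages and transcribes mitochondrial DNA, was higher (0.27 ± 0.05, adjusted p = 0.00135).

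**Figure D1:**
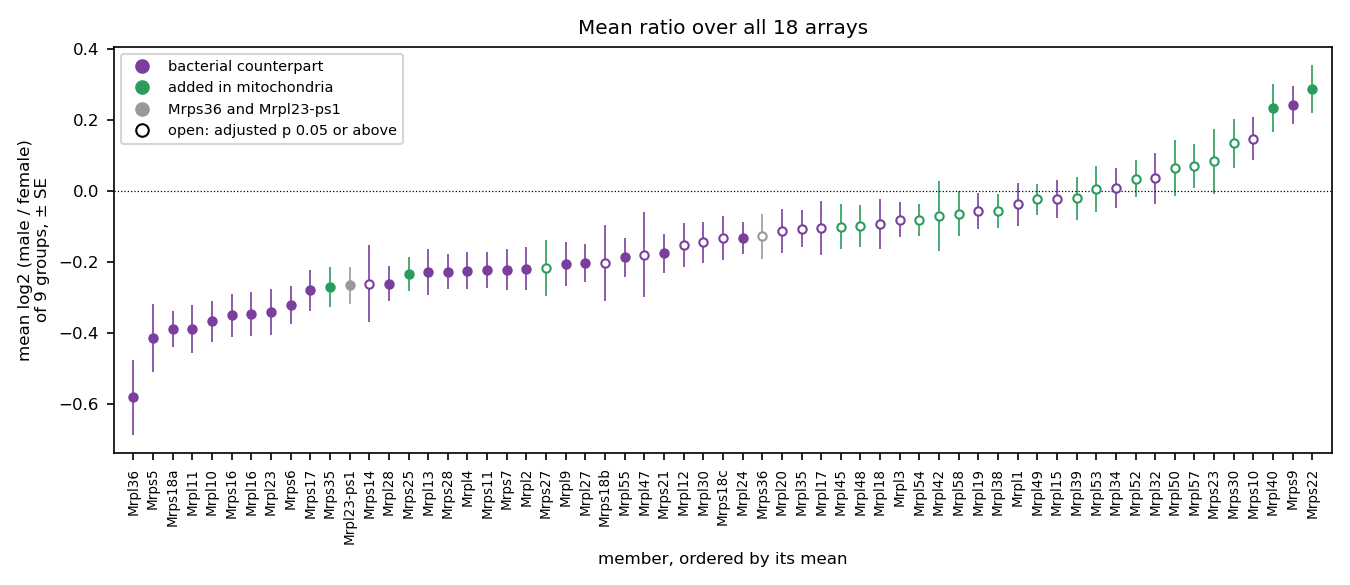
Mean log2 ratio of male over female (mean of the 9 group means, bars ± SE) for each of the 61 tested members, ordered by value. Filled points have an adjusted p under 0.05, and colour separates members with a bacterial counterpart from those added in mitochondria; 25 filled points lie below 0 and 3 (Mrpl40, Mrps9 and Mrps22) above.

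The members with a bacterial counterpart carried most of the lower values. Of 40 such proteins, 22 were lower and 1 (Mrps9) was higher, with a median of -0.20. Of the 19 proteins added in mitochondria, 2 (Mrps25 and Mrps35) were lower and 2 (Mrps22 and Mrpl40) were higher, with a median of -0.02. The median of the first class lay below that of the second on 16 of 18 arrays. When 1 spot per symbol was used the second median was 0.01, and the first was -0.18. By subunit, the large one had 14 lower and 1 higher of 41 (median -0.10) and the small one 10 lower and 2 higher of 18 (median -0.22). The small-subunit median lay below the large-subunit median on 10 of 18 arrays. The difference between these classes was described and not tested.

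In the large subunit, Mrps18a, one of 3 relatives of bacterial S18, was the member with the smallest p. It ranged from -0.64 to -0.01 with a median of -0.32 on the control arrays, from -0.96 to -0.04 with a median of -0.63 on the CCH arrays, and from -0.49 to -0.05 with a median of -0.34 on the CIH arrays. It was below 0 on all 18 arrays, and the 3 conditions overlapped. Its mean over the 18 arrays was -0.39 ± 0.05 (SE from the spread within groups), a male signal 76.4% of the female one, with an adjusted p of 0.000235. The other relatives, Mrps18b (-0.20 ± 0.11) and Mrps18c (-0.13 ± 0.06), both of the small subunit, were not called, with adjusted p-values of 0.169 and 0.123. Mrpl36, a small protein that joins the large subunit late in assembly, had the lowest mean of all members. Its arrays ranged from -1.85 to 0.14 with a median of -0.47, and 17 of 18 were negative. The mean was -0.58 ± 0.11, a male signal 66.9% of the female one (adjusted p = 0.00191).

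The stalk of the large subunit, which recruits translation factors, is formed by Mrpl10 and Mrpl12 on a base that includes Mrpl11. Mrpl10 was lower on 15 of 18 arrays, with a range from -1.001 to 0.29, a median of -0.34 and a mean of -0.37 ± 0.06 (adjusted p = 0.000838). Mrpl11 was likewise lower on 15 of 18 arrays, from -1.05 to 0.22 with a median of -0.35, and its mean was -0.39 ± 0.07 (adjusted p = 0.00154). Mrpl12, which also binds the mitochondrial RNA polymerase, ranged from -0.76 to 0.87 and was not called (-0.15 ± 0.06, adjusted p = 0.0825). So Mrpl10 of the stalk and Mrpl11 of its base passed the test and Mrpl12 did not, a contrast that was not itself tested. In the CCH arrays alone, Mrpl12 was called lower (-0.40 ± 0.11, adjusted p = 0.03), a call lost in 8 of the alternatives. Mrpl11 was not called there (-0.36 ± 0.12, adjusted p = 0.062). Among core proteins of the large subunit, Mrpl16 was lower (-0.35 ± 0.06, 13 of 18 arrays), as was Mrpl2 (-0.22 ± 0.06, 13 of 18 arrays). Mrpl3 was not called (-0.08 ± 0.05, adjusted p = 0.237). Mrpl23, which lies near the exit tunnel, was lower (-0.34 ± 0.06, 14 of 18 arrays), as was Mrpl23-ps1 (-0.27 ± 0.05). Mrps30, a large-subunit protein also linked to cell death, was positive on 14 of 18 arrays but not called (0.14 ± 0.07, adjusted p = 0.147).

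In the small subunit, Mrps5, which lies near the decoding site, had a mean of -0.41 ± 0.10 and was negative on 14 of 18 arrays (adjusted p = 0.00698). Its 2 spots had means of -0.16 and -0.67, and the call was lost when only 1 of them was used. Mrps16, mutated in a fatal neonatal lactic acidosis, was lower on 15 of 18 arrays (-0.35 ± 0.06), and Mrps6 on 16 of 18 (-0.32 ± 0.05). Mrps7, a protein of the head that contacts the tRNA exit site, was lower on 16 of 18 (-0.22 ± 0.06, adjusted p = 0.0116), a call that was also lost with 1 spot per symbol. The members higher in the male channel were Mrps22, an added protein (0.29 ± 0.07, 15 of 18 arrays, adjusted p = 0.00746), Mrps9 (0.24 ± 0.05, 16 of 18 arrays) and Mrpl40, an added large-subunit protein (0.23 ± 0.07, 15 of 18 arrays, adjusted p = 0.0197). Mrpl40 was not called after quantile normalization or after scaling the arrays to a common spread. Mrps36, which is no ribosomal subunit, was not called (-0.13 ± 0.06, adjusted p = 0.15). Of the 28 calls, 20 held under every alternative tried.

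Members differed in how much they varied from array to array. The SD over the 18 arrays was smallest for Mrpl49 (0.12), an added large-subunit protein whose arrays ranged from -0.33 to 0.17, and largest for Mrpl47 (1.00), a relative of bacterial L29 near the exit tunnel, whose arrays ranged from -2.21 to 1.23. Mrps14 (0.62, on 17 arrays), Mrpl40 (0.56) and Mrpl36 (0.55) followed. Of 25 members with several spots, 16 had spot means of one sign, and Mrpl48 had one spot at 0.15 and the other at -0.34. The untested Mrpl44, an RNA-binding protein at the edge of the large subunit, was positive on 9 of its 12 arrays, from -0.57 to 1.24.

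On single arrays, the median of the members ran from -0.32 on control 2 weeks replicate 2 and CCH 4 weeks replicate 2 to 0.02 on CCH 2 weeks replicate 1, and it was negative on 16 of 18. Between 28 and 49 of the members were negative on an array, the most on control 2 weeks replicate 2. The SD of the members within an array was 0.18 to 0.68, and that of all units was 0.22 to 0.66. Both arrays of a group gave a member the same sign for 29 of 61 members in the control 1 week group, the fewest, and for 48 of 61 in the CCH 1 week group, the most.

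**Figure D2:**
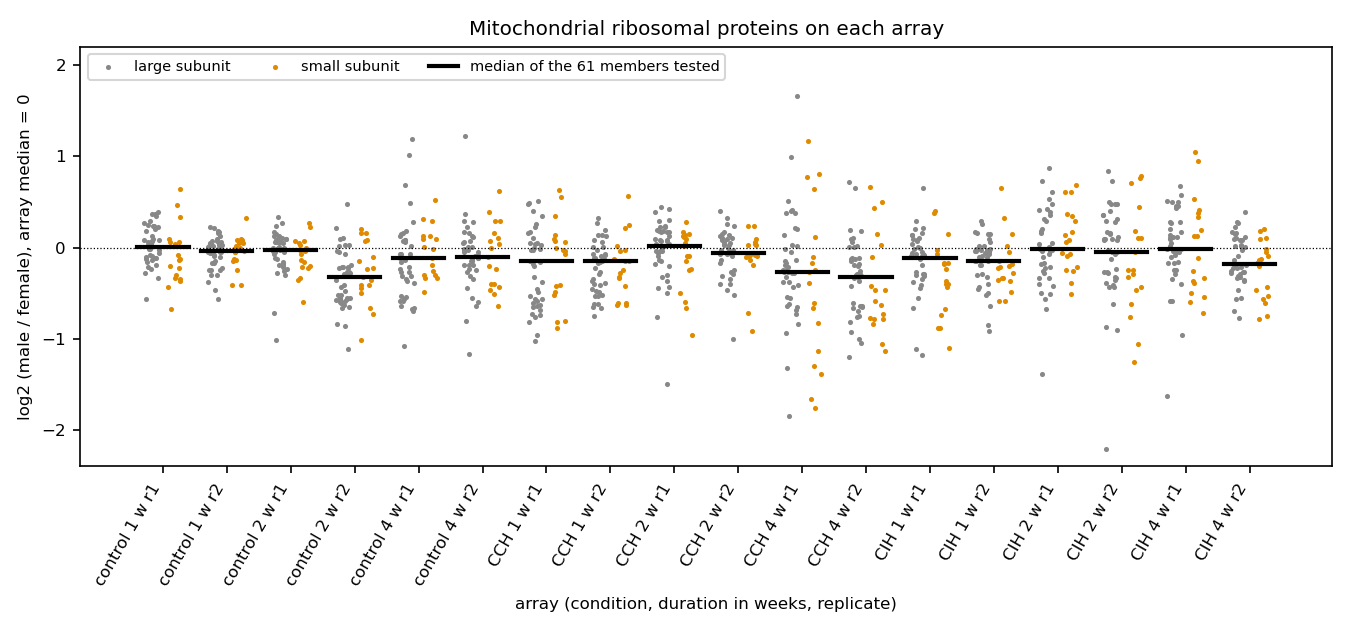
Log2 ratio of male over female (centred on each array's median) of the 41 large-subunit (grey) and 18 small-subunit (orange) members on each of the 18 arrays; the black line is the median of the 61 members. The medians lie between -0.32 and 0.02, and the array control 2 weeks replicate 2 stands below the other arrays of its condition.

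Within conditions, lower ratios were called in CCH and in CIH but not in the controls. In the controls limma called 0 of 61 members, with 0% of all units below and 0.00974% above (1 unit). The members' median was nevertheless -0.12 in the controls, against -0.02 for all units, and 49 of 61 members had a negative mean. In CIH the members' median was -0.06, with 39 of 61 negative, so the lack of calls does not set the controls apart. At an unadjusted p under 0.05, 11 members were lower and 0 were higher in these arrays, which is 18% against 9.15% of all units. The smallest adjusted p there was 0.282, for Mrps18a (-0.32 ± 0.09, negative on 6 of 6 arrays).

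In CCH, 19 members were lower and 2 were higher, against 7.89% of all units below and 2.89% above. The members' median was -0.22, against -0.05 for all units. The lower ones were 10 large-subunit and 8 small-subunit proteins and Mrpl23-ps1. Mrps28, a small-subunit protein, had the smallest p (-0.58 ± 0.08, negative on 4 of 6 arrays, adjusted p = 0.00199). The 6 CCH arrays of Mrps28 had an SD of 0.61, and those at 2 weeks were positive. Mrps18a followed (-0.52 ± 0.09, 6 of 6 arrays, adjusted p = 0.0047). Mrpl36 (-0.63 ± 0.18), Mrps5 (-0.55 ± 0.17) and Mrps16 (-0.48 ± 0.11) were lower as well, calls lost in 11, 16 and 6 of the alternatives. Mrpl40 (0.55 ± 0.12) and Mrps9 (0.36 ± 0.09) were higher on 6 of 6 arrays each, calls lost in 2 and 7. In the same arrays 4 of 7 leukocyte markers were called lower (median -0.54), and their part was not tested. The count of members rested on single arrays and on the scale: it was 7 without CCH 1 week replicate 1, 7 without CCH 1 week replicate 2, 4 without CCH 2 weeks replicate 1, 4 without CCH 2 weeks replicate 2 and 6 without CCH 4 weeks replicate 1, and 5 after quantile normalization and 4 with arrays scaled to a common spread. Mrps18a and Mrps28 were called under every alternative.

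In CIH, 9 members were lower and 1 was higher, against 8.37% of all units below and 3.73% above. The median was -0.06, against -0.04 for all units. Mrpl47 was lowest (-1.07 ± 0.21, 6 of 6 arrays, adjusted p = 0.00747), a male signal 47.7% of the female one. Mrpl36 (-0.73 ± 0.18), Mrps35, an added small-subunit protein (-0.48 ± 0.10), Mrps6 (-0.40 ± 0.09) and Mrpl11 (-0.39 ± 0.12) were also lower, and Mrps22 was higher (0.48 ± 0.12, 6 of 6 arrays). This count was 0 without CIH 1 week replicate 1, the array with conflicting labels, 6 without CIH 1 week replicate 2, 0 without CIH 2 weeks replicate 2 and 2 without CIH 4 weeks replicate 1, the array with no male excess, and 2 when the arrays were scaled to a common spread. It was 15 without CIH 4 weeks replicate 2 and 17 with no centring. No call in CIH held under every alternative. Without CIH 4 weeks replicate 1 the called members were Mrpl47 (-1.02, adjusted p = 0.0486) and Mrps35 (-0.49, adjusted p = 0.0482), while Mrpl36 (-0.50), Mrps6 (-0.36), Mrpl11 (-0.50) and Mrps22 (0.34) were not called. Red-cell markers (2 of 2, median -1.44) and 2 of 7 leukocyte markers were called lower in CIH, and their part was not tested.

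**Figure D3:**
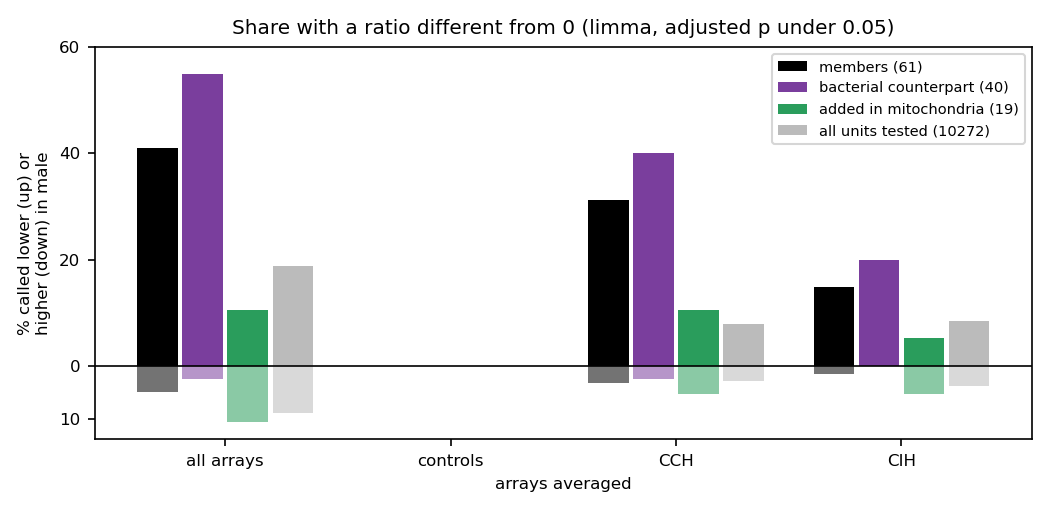
Share of units with a mean ratio called different from 0, above the line for lower and below it for higher in the male channel, for the 61 members, the 40 with a bacterial counterpart, the 19 added in mitochondria and all 10272 units. No bar stands over the controls for the members; in CCH the members with 19 of 61 lower stand above all units at 7.89%.

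Whether hypoxia shifted the ratio was tested by the difference between conditions, averaged over durations. The comparisons of CCH and of CIH with control share the control arrays. For CCH minus control, limma called 0 of 61 members and 0% of all units. At an unadjusted p under 0.05, 1 member was higher and 4 were lower, 8.20% against 6.32% of all units. The members' median difference was -0.11, against -0.04 for all units, with 44 of 61 negative. The lower ratios called in CCH alone were therefore not shown to differ from those of the controls.

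Mrpl40 had the largest difference between CCH and control. Its control arrays ranged from -1.11 to 0.37 with a median of 0.03, and its CCH arrays from 0.06 to 1.66 with a median of 0.32. The controls were low at 2 weeks (-0.72 and -1.11) and CCH was high at 4 weeks (1.66 and 0.72), and the conditions overlapped. The difference was 0.73 ± 0.17, with an adjusted p of 0.699. Mrps28 was the next by p, at -0.50 ± 0.12 (adjusted p = 0.699). Its controls ranged from -0.41 to 0.16 and its CCH arrays from -1.39 to 0.14, again with overlap. The differences of Mrps35 (-0.36 ± 0.14), Mrpl9 (-0.32 ± 0.15), Mrps11 (-0.27 ± 0.12) and Mrps9 (0.28 ± 0.13) had an adjusted p of 0.749.

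For CIH minus control, 0 of 61 members were called by limma, against 0.00974% of all units. At an unadjusted p under 0.05, 3 members were higher and 2 were lower, 8.20% against 12.7% of all units. The median difference was 0.03. Mrpl47 came nearest to the threshold, at -1.45 ± 0.29 (adjusted p = 0.0521). Its control arrays were 0.18 and 0.22 at 1 week, -1.02 and 0.47 at 2 weeks and 1.19 and 1.23 at 4 weeks. Its CIH arrays were -1.11 and -0.04 at 1 week, -1.38 and -2.21 at 2 weeks and -0.96 and -0.70 at 4 weeks. All CIH arrays were negative, and 1 control array overlapped them. Over the alternatives the adjusted p ran from 0.0132 to 0.469, and 9 of them called it: without control 2 weeks replicate 1 (0.0142), CCH 2 weeks replicate 1 (0.0135), CCH 2 weeks replicate 2 (0.0132), CIH 1 week replicate 2 (0.0369) or CIH 4 weeks replicate 2 (0.0498), without centring, with units on all 18 arrays, with 1 spot per symbol and with a replicate block. Under the replicate block the adjusted p was 0.031. Without the array labelled CIH 4 weeks replicate 1 the difference was -1.40 (adjusted p = 0.16).

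Red-cell markers moved with Mrpl47. Of 10 listed, Alas2, the first enzyme of haem synthesis in red-cell precursors, and Slc4a1, the red-cell anion exchanger, were measured. Their median ranged from -0.54 to 1.19 on the control arrays, from -2.03 to 1.64 on the CCH arrays and from -2.63 to -0.12 on the CIH arrays. It had the same sign as Mrpl47 on 16 of 18 arrays. The part of red-cell RNA in the Mrpl47 result was not tested.

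Mrps35 was the only 1 of the 61 tested members whose CIH and control arrays did not overlap, with CIH below. The gap was small, from -0.22 in CIH to -0.20 in a control. Such a count was not made over all units. Its control arrays were -0.20, 0.09, -0.15, 0.08, -0.02 and 0.29, and its CIH arrays -0.37, -0.22, -0.51, -0.61, -0.54 and -0.60, each in order of duration. The difference was -0.49 ± 0.14 (adjusted p = 0.0989), and -0.50 (adjusted p = 0.208) without CIH 4 weeks replicate 1. Mrpl40 differed by 0.53 ± 0.17 (adjusted p = 0.145), Mrps36 by 0.41 ± 0.16 (adjusted p = 0.287) and Mrpl18, which binds the small RNA of the central protuberance in bacteria, by 0.41 ± 0.17 (adjusted p = 0.341). Mrps18b, at -0.56 ± 0.26 (adjusted p = 0.395), rested on 1 of its 2 spots, with CIH means of -1.52 on one and -0.004 on the other.

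Set directly against each other, CCH and CIH gave 0 called members by limma, against 0.00974% of all units. At an unadjusted p under 0.05, 1 member was higher in CCH and 8 were lower, 14.8% against 9.28% of all units. Mrps28 differed by -0.55 ± 0.12 (adjusted p = 0.145), Mrpl47 by 1.22 ± 0.29 (adjusted p = 0.155), Mrps21 by -0.48 ± 0.14 (adjusted p = 0.176), Mrpl18 by -0.52 ± 0.17 (adjusted p = 0.278) and Mrpl12 by -0.47 ± 0.15 (adjusted p = 0.25). Mrpl47 was called when CCH 2 weeks replicate 1 was left out (log2 difference 1.48).

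**Figure D4:**
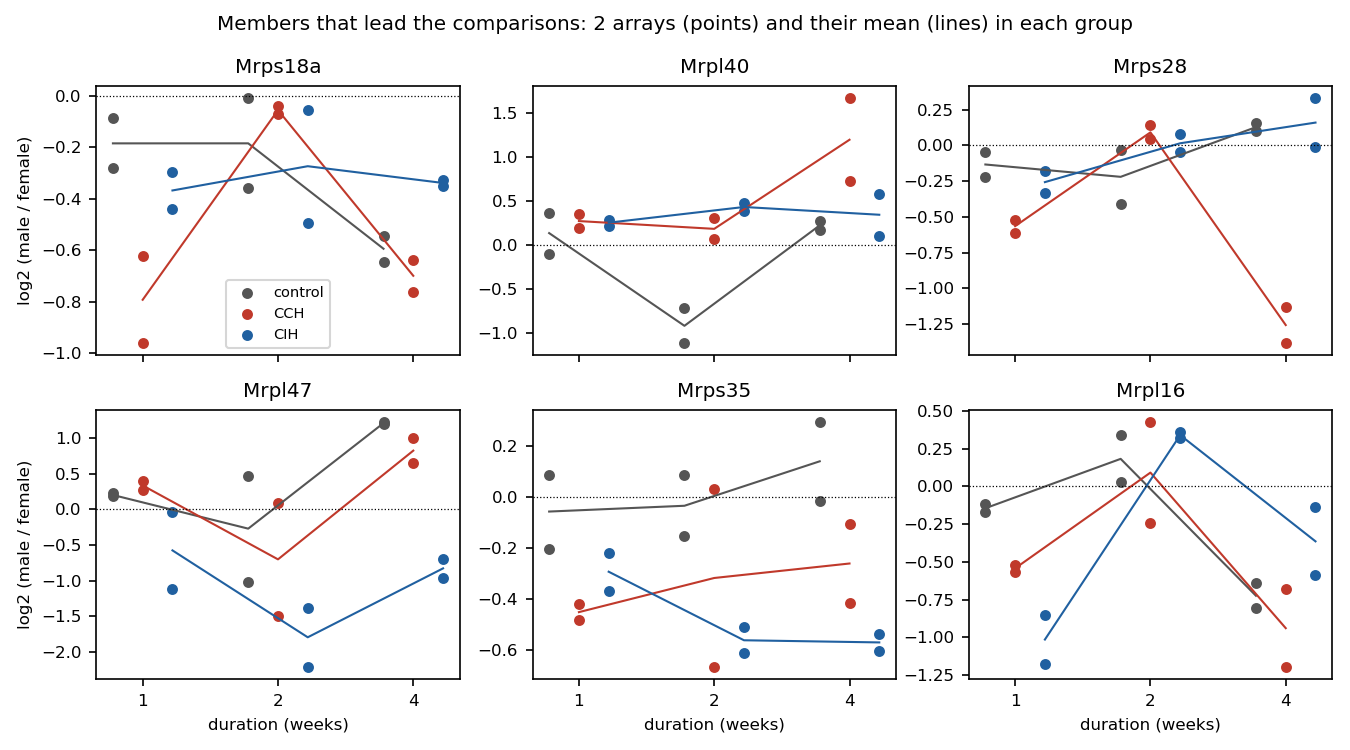
Log2 ratio of male over female of 6 members by duration in weeks, with the 2 arrays of each group as points and their mean joined by lines, for control, CCH and CIH. Mrps28 falls apart from the other groups in CCH at 4 weeks (-1.39 and -1.13), and Mrpl47 is negative on all CIH arrays.

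By duration, the clearest member was Mrps28 in CCH at 4 weeks. Its CCH arrays were -0.52 and -0.61 at 1 week, 0.14 and 0.04 at 2 weeks and -1.39 and -1.13 at 4 weeks. Its control arrays were -0.22 and -0.04, then -0.03 and -0.41, then 0.10 and 0.16. At 4 weeks the difference was -1.39 ± 0.21, the smallest p of all 10272 units, with an adjusted p of 0.0537. It was called without control 2 weeks replicate 1 (adjusted p = 0.0429), control 2 weeks replicate 2 (0.0447) or CCH 4 weeks replicate 2 (0.0353), with units on all 18 arrays and with the array of conflicting labels regrouped, and the adjusted p reached 0.798 with arrays scaled to a common spread. In that comparison limma called 0 members and 0% of all units, and 3 members were higher and 9 lower at an unadjusted p under 0.05, 19.7% against 15.1%. Among the small-subunit proteins these were 2 higher and 5 lower of 18. Mrps14 was counted with a single control array at 4 weeks, since its other value is missing. Without it the counts were 3 higher and 8 lower of 60 members (18.3%) and 2 higher and 4 lower of 17 small-subunit proteins. Mrps16 (-0.88 ± 0.26) was on the lower side, and Mrpl40 (0.97 ± 0.29), Mrps10 (0.83 ± 0.26) and Mrps9 (0.72 ± 0.23) on the higher one. Of the leukocyte markers, 4 of 7 had a lower ratio at an unadjusted p under 0.05 in this comparison (median -0.70), and their part in the Mrps28 value was not tested.

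At the shorter times CCH minus control gave 0 called members by limma. At 1 week, against 0% of all units called, 8 members were lower and 0 higher at an unadjusted p under 0.05, 13.1% against 6.15% of all units. All 8 had a bacterial counterpart, as did 40 of the 61 tested members, and the difference in share was not tested. The 8 were led by Mrpl55 (-0.86 ± 0.23), Mrps21 (-0.76 ± 0.23) and Mrpl12 (-0.81 ± 0.26), each with an adjusted p of 0.711. At 2 weeks, against 0.0195% of all units called, 3 members were higher and 0 lower, 4.92% against 9.38%, led by Mrpl40 (1.10 ± 0.29, adjusted p = 0.498). The member median at 2 weeks was 0.19, and leaving out control 2 weeks replicate 2 made it 0.02, while leaving out control 2 weeks replicate 1 made it 0.32.

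For CIH minus control, limma called 0 members at each duration. At 1 week, with 0% of all units called, 1 member (Mrpl16, -0.87 ± 0.26) had an unadjusted p under 0.05, 1.64% against 2.34%. At 2 weeks, with 0.00974% of all units called, 11 members were higher and 3 lower at an unadjusted p under 0.05, 23.0% against 22.7%. Among these, Mrpl40, Mrps23, Mrpl53, Mrpl50, Mrpl45 and Mrps35 were proteins added in mitochondria. Markers of other cells differed in the same comparison: skeletal muscle had 3 of 4 higher (median 0.99), fibroblasts 3 of 5 higher (median 0.44) and red cells 2 of 2 lower (median -2.09) by the same rule. Their part was not tested. Mrps36 differed by 1.29 ± 0.27, Mrpl40 by 1.35 ± 0.29, Mrps21 by 0.93 ± 0.23 and Mrps23, an added small-subunit protein, by 1.37 ± 0.39, each with an adjusted p of 0.117. These 2-week values share the control 2 weeks arrays, where Mrps36 was -0.29 and -0.94, Mrpl40 -0.72 and -1.11, and Mrps23 -0.35 and -1.01. The member median there was 0.16, and -0.03 without control 2 weeks replicate 2 or 0.32 without control 2 weeks replicate 1. At 4 weeks, with 0% of all units called, 0 members were higher and 2 lower, 3.28% against 8.14%. These were Mrpl47 (-2.04 ± 0.51, adjusted p = 0.116) and Mrps35 (-0.71 ± 0.24, adjusted p = 0.254). Without the array with no male excess they were -1.91 (adjusted p = 0.645) and -0.74 (adjusted p = 0.7). Both red-cell markers were lower there at an unadjusted p under 0.05 (median -2.70), and their part was not tested. Mrpl47 was called there when either CCH 2 weeks array was left out.

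Averaged over conditions, 2 weeks minus 1 week gave 0 called members by limma, against 0.00974% of all units. At an unadjusted p under 0.05, 12 members were higher and 4 lower, 26.2% against 21.7%. Of these 16, 15 had a bacterial counterpart, against 40 of the 61 tested members, a difference that was not tested. Mrpl16 led: its 1-week arrays were -0.12 and -0.17 in controls, -0.57 and -0.52 in CCH and -1.18 and -0.85 in CIH. Its 2-week arrays were 0.34 and 0.03, 0.43 and -0.24, and 0.36 and 0.32. The difference was 0.77 ± 0.15 (adjusted p = 0.0824), and the durations overlapped through CCH 2 weeks replicate 2. Mrpl9, a protein at the base of the large subunit's other stalk, differed by 0.60 ± 0.15 (adjusted p = 0.0885). Both were called without control 1 week replicate 2, and Mrpl16 and Mrpl47 (-0.91 ± 0.29 with all arrays) without CCH 2 weeks replicate 2.

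For 4 weeks minus 1 week, limma called 0 members and 0% of all units, and 1 member was higher and 5 lower at an unadjusted p under 0.05, 9.84% against 9.61%. Mrpl36 had the smallest p (-0.65 ± 0.26, adjusted p = 0.455). The F test of whether a hypoxia difference changed with duration called 0 members and 0% of all units. Its unadjusted p was under 0.05 for 14 members, 23.0% against 13% of all units, and Mrps28 had the smallest (F = 10.6, adjusted p = 0.349).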

How the data were processed

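Per the labels, male heart cDNA (Cy5) and female heart cDNA (Cy3) were hybridised together on each of 18 two-colour 27K mouse arrays. The authors deposited 1 value per spot, used here as a log2 ratio. The base follows from the values, since the mean of 2 to the value is 1 on every array; background correction and normalization are not given in the sources used here. The number of arrays limits the precision. Of 28704 spots, 18511 had 1 symbol in the platform annotation, 937 several and 9256 none, and all 62 member symbols matched RefSeq. The median of each array was subtracted, then spots sharing a symbol were averaged. limma 3.58.1 (R 4.3.3) fitted 9 group means over all 10272 units with a value in every group (two-sided, Benjamini-Hochberg, threshold 0.05), and was tested on simulated data. Figures were drawn with matplotlib.

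The members and lists were chosen with earlier results of these data known. Named were up to 5 members per direction with the smallest p in each comparison of conditions or durations, up to 8 called members per direction with the largest mean over all arrays, up to 5 called per direction within a condition, and members listed by role. Of these, Mrpl41, Mrps12 and Mrps34 were not analysed here, and 6 spots shared by Mrps25 and Nr2c2 were not used. Members named for their SD or spots were chosen after their values were seen. Alternatives were no centring, quantile normalization, a common spread, other filters on missing values, 1 spot per symbol, a replicate block, regrouping 1 array, an additive model, a robust prior, subunits by symbol and leaving out each array.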

Additional observations from a re-analysis of the deposited data

Results flagged for a closer look

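Sets of 6 arrays (a member in a condition) were looked at by Dixon's test, for a part of the members. In 8 of the 147 sets, 1 array lay far from the other 5, a share near the 1 in 20 that chance gives. The 8 sets are listed for their values, and their number is not shown to exceed chance. Mrpl12 was 0.869 on CIH 2 weeks replicate 1, with the others from -0.297 to 0.0822. Mrpl19, a large-subunit protein, was -0.434 on CIH 2 weeks replicate 2, with the others from -0.0127 to 0.17. On CIH 4 weeks replicate 2, Mrpl23 was 0.282 (others -0.622 to -0.311) and Mrpl23-ps1 was 0.0686 (others -0.43 to -0.25). Mrpl45 was -0.563 on that array (others -0.0231 to 0.289) and -0.632 on CCH 1 week replicate 1 (others 0.0026 to 0.193). Mrpl47 was -1.5 on CCH 2 weeks replicate 1 (others 0.0934 to 0.997), where the red-cell marker median was -2.03. Mrps7 was -0.768 on CCH 4 weeks replicate 2 (others -0.194 to -0.00908). Outside these 8 sets, control 2 weeks replicate 2 was -0.612 for Mrpl34 (other controls -0.0539 to 0.116). For Mrpl53 it was -0.841 (other controls -0.0805 to 0.351).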

How the results depend on the processing

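Over the alternatives, the count of called members and the members' median stayed within the spread used here for 777 values and moved for 43, where the cause was not tested. The number of members called in the ratio over all arrays was 25 to 36, and its median was -0.183 to -0.122. For the ratio in CCH (21 called) the count was 5 after quantile normalization, 4 with a common spread, and 4 to 23 when 1 array was left out. For the ratio in CIH (10 called) it was 17 without centring, 2 with a common spread, 2 with the CIH 1 week array regrouped, and 0 to 15 when 1 array was left out. For CIH minus control (0 called) it was 1 without centring, 1 with units on all 18 arrays, 1 with 1 spot per symbol and 1 with the replicate block, and 0 to 1 when 1 array was left out. It was 0 to 1 when 1 array was left out for CCH minus CIH, for CCH minus control at 4 weeks and for CIH minus control at 4 weeks, and 0 to 2 for 2 weeks minus 1 week. With a common spread it was 1 for CCH minus control at 2 weeks and 1 for CIH minus control at 2 weeks (Mrpl40 in both), and for CCH minus control at 4 weeks it was 1 with units on all 18 arrays and 1 with the array regrouped (Mrps28 in both).

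The median in CCH minus control at 4 weeks was -0.116 after quantile normalization and -0.106 with a common spread. Leaving out 1 array gave medians of 0.0167 to 0.323 for CCH minus control at 2 weeks, -0.032 to 0.321 for CIH minus control at 2 weeks, -0.0165 to 0.185 for CIH minus control at 4 weeks and -0.0311 to 0.112 for 2 weeks minus 1 week. Directions reversed with 1 spot per symbol for Mrps18b in CIH minus control (0.143), CCH minus CIH (-0.104) and CIH minus control at 4 weeks (0.16), for Mrpl38 in CCH minus control at 1 week (-0.164) and for Mrpl19 in 2 weeks minus 1 week (0.0624). They also reversed for Mrpl3 in CIH minus control at 1 week without control 1 week replicate 2 (range -0.00652 to 0.24 when 1 array was left out) and for Mrpl18 in CIH minus control at 4 weeks without CIH 4 weeks replicate 1 (range -0.0245 to 0.79). Of the other values of named members, 3768 kept their side of the threshold, 77 lost a call and 28 gained one.

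The replicate numbers, which follow the A and B letters of the titles where given, showed no consistent pairing. Over 36 pairs of groups, same-numbered arrays deviated together (r over 0.1) in 15 and against each other (r under -0.1) in 15. The r ran from -0.55 to 0.45. The first arrays of CCH at 1 and 2 weeks carry no letter, so whether the letters mark a pairing is not settled. With the replicate numbers as a block, the members called numbered 27 for the ratio over all arrays, 19 in CCH and 10 in CIH. With 2 arrays a group, a lone array was assumed to vary like the other groups when 1 was left out.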
